A study of Mus musculus with 2 samples.

Results

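Levels of 10 genes were read in RNA from mouse cells labelled as megakaryocyte-erythroid progenitors: the AP-1 genes Fos, Fosb, Fosl1, Fosl2, Jun, Junb and Jund, and the rapidly induced genes Atf3, Egr1 and Ier2. They were taken by symbol as a fixed list, and all 10 were found among the 43346 annotated gene rows. Such progenitors give rise to red cells and platelet-shedding megakaryocytes. The cells were primary cells of adult female C57BL/6J mice aged 5 weeks, and the labels describe them as CD34-negative, listing CD16/32 together with lineage markers without a sign for either. Poly(A)-selected RNA was sequenced as 2 biological replicates of this single group, from separate biosamples that carry the same donor identifier. No treatment, genotype or time differed between them, so every difference below is between replicates, without a test, and may be technical. Levels of some granulocyte enzyme genes went against the label. Mpo (10136 and 6523 TPM in replicates 1 and 2), Prtn3 (10599.7 and 5185) and Elane (8624 and 4337) far exceeded the erythroid factor gene Klf1 (123 and 124) and the megakaryocyte integrin gene Itga2b (115 and 211). Markers were mixed beyond these. The globin gene Hba-a1 (498 and 878) exceeded Klf1, while the myeloid markers Lyz2 (30.5 and 18.3) and Csf1r (27.3 and 16.4) lay below Klf1 and Itga2b. The libraries are therefore named by their label only.

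AP-1 is a pair of basic leucine zipper proteins that grip each other through the zipper and bind DNA through the basic region. Jun family proteins can pair with themselves or with Fos family proteins, whereas Fos family proteins need a Jun partner. Growth factors, cytokines and stress reach these genes through MAP kinases and through the factors SRF and CREB already bound at their promoters, so their mRNA rises within minutes and, where it carries AU-rich elements, is soon degraded. In blood progenitors AP-1 is best known from monocytic differentiation and from the response to cytokines.

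Promoters are shown for a pair of genes whose mRNA was higher in replicate 1, Fos and Jun, and for a close relative of each, Fosb, which was lower there, and Junb, which was about level, so that the sequence at each start can be set beside the values. Each line holds the 300 bases from 250 before to 50 after the RefSeq start on GRCm38.p6, 5′ to 3′ on the gene's strand. Capitals mark matches to TGACG (the core of a cyclic AMP response element), TGACATCA (an element of the same family known from Jun), TATAAA or CCAAT.
Fos, chr12:85473640-85473939, plus strand: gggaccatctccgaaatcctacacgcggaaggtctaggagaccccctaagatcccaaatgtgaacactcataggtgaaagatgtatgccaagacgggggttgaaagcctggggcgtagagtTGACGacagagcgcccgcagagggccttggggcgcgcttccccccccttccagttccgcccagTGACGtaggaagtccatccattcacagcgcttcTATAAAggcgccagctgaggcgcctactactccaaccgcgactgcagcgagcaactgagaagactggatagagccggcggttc
Jun, chr4:95052173-95052472, minus strand: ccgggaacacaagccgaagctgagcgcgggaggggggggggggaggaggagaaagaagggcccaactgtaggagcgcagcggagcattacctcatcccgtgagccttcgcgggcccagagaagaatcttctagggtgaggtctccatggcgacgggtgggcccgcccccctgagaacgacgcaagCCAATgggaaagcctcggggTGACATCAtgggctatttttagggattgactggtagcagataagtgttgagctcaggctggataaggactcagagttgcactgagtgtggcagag
Fosb, chr7:19309996-19310295, minus strand: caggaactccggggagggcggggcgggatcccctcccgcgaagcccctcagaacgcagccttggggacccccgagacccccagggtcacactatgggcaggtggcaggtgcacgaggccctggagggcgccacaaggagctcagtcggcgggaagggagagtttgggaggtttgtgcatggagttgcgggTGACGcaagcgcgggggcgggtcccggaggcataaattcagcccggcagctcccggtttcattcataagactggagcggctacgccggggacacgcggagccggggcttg
Junb, chr8:84978699-84978998, minus strand: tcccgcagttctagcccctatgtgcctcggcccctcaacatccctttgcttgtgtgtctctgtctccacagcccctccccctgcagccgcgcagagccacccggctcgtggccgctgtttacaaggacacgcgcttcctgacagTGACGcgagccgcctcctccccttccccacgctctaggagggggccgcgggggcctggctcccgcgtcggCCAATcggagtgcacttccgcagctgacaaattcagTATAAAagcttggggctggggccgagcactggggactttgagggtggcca

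Of the 10 genes, 7 had a promoter in the RefSeq table: these 4, Atf3, Fosl2 and Jund. The window of Jund (70697489 to 70697788) ends before the GENCODE M21 start of the gene, 70698949. That of Fosl2 (32136222 to 32136521) lies inside its first M21 exon, which starts at 32135801. For both genes the bases next to the M21 start were therefore not searched. Searched on both strands, TGACG stood in 4 of the 7 (Fos, Fosb, Junb and Atf3), against 20.8% of 32851 promoters of the same length. Fos held it 129 and 66 bases before the start, Fosb 60 bases and Junb 106 bases before it. TGACATCA stood in Jun alone, 45 bases before the start, against 3.62% of promoters. TATAAA was found in Fos and Junb (13.6% of promoters) and CCAAT in Jun, Junb and Atf3 (37.4%). The TATAAA of Junb began at base 1, on the RefSeq start itself. The CCAAT of Atf3 lay on the opposite strand from base 6 after the start, so neither was upstream of the RefSeq start. In GENCODE M21, Junb-201 starts farther downstream, at 84978718, so the TATAAA of Junb lies upstream of that start. The full element TGACGTCA (1.79% of promoters), the AP-1 element TGAGTCA (5.2%) and the CArG box bound by SRF (1.63%) had no match in the 7 windows. Bases farther than 250 before the start were not searched, nor were Egr1, Ier2 and Fosl1. The search therefore cannot show that these genes lack such sites. TGACG is part of TGACGTCA, and matches are letters in these windows, not shown sites. Fos and Fosb both held the core TGACG, while their levels differed in opposite directions between the libraries. The windows are reference sequence, the same for both libraries, and a link between motifs and these differences was not tested.

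The Jun family was abundant in each library. Levels are TPM, transcript abundances scaled for length to a total of 1000000 per library, with the SD between libraries. Jund, a Jun protein found in resting cells and often slower to induce, had 1732 TPM in replicate 1 and 1928 in replicate 2 (1830 ± 139, SD, n = 2). Jun, the target of JNK kinases, had 1942 TPM in replicate 1 and 1277 in replicate 2 (1610 ± 470, SD, n = 2). Junb, which can hold back Jun-driven growth and is a known brake on myeloid expansion in mice, had 1309 and 1304 TPM (1307 ± 4.08, SD, n = 2). Jun was thus the highest of the family in replicate 1 and the lowest in replicate 2, while Junb hardly differed. The place of Jund in this order rests on a transcript model of 2878 bases, against 1668 in GENCODE M21. It was not recomputed on the shorter model.

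The Fos family divided into 2 abundant genes and 2 far lower ones. Fos had 1741 TPM in replicate 1 and 733 in replicate 2 (1237 ± 713, SD, n = 2). Fosb, its close paralog with the longer mRNA, had 720 TPM in replicate 1 and 1065 in replicate 2 (893 ± 244, SD, n = 2). The library that was high for Fos was therefore the low one for Fosb. Fosl2, which encodes Fra-2, had 26.9 and 32.7 TPM (29.8 ± 4.09, SD, n = 2). Fosl1, which encodes Fra-1, had 25.4 and 26.2 TPM (25.8 ± 0.523, SD, n = 2). These proteins lack the strong activation domains of Fos, and their mRNA usually appears later in a response.

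Of the remaining genes, Ier2, a short-lived nuclear protein gene of the same response, had 1053 TPM in replicate 1 and 861 in replicate 2 (957 ± 136, SD, n = 2). Egr1, a zinc finger factor that binds GC-rich promoters, had 530 TPM in replicate 1 and 325 in replicate 2 (428 ± 145, SD, n = 2). Atf3, a stress-induced zipper protein that can pair with Jun proteins, had 42.2 and 35.4 TPM (38.8 ± 4.82, SD, n = 2). All 3 were higher in replicate 1.

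**Figure D1:**
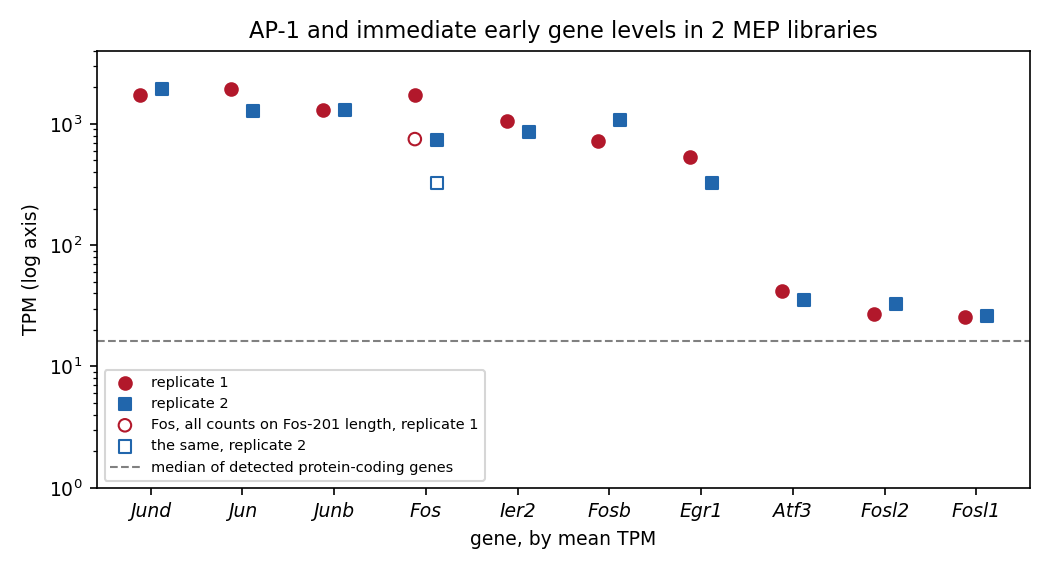
TPM on a log axis of the 10 genes in replicate 1 (circles) and replicate 2 (squares), ordered by mean; open symbols give Fos with every count on the length of Fos-201, and the dashed line is the median of detected protein-coding genes, 16.4 TPM. The upper 7 genes lie at 325 TPM or more in each library and the lower 3 between 25.4 and 42.2 TPM.

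Among 21474 protein-coding genes, 7 of the 10 lay at percentile 98.5 (Egr1) or above by mean TPM. Jund stood at rank 78 in replicate 1 and 65 in replicate 2, Jun at 69 and 96, and Fos at 77 and 170. Atf3, Fosl2 and Fosl1 lay at percentiles 85.7, 83.1 and 81.4, still above the median of the 10061 genes detected at a TPM of 1 or more in both libraries. Together the 10 genes held 0.912% of all TPM in replicate 1 and 0.759% in replicate 2.

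By mean TPM the order was Jund, Jun, Junb, Fos, Ier2, Fosb, Egr1, Atf3, Fosl2 and Fosl1. Neighbours were called different where they kept their order in each library, stood over 2-fold apart in the mean log2 ratio and had deposited TPM intervals that did not meet within either library. Only 2 of 9 neighbours met this. Egr1 exceeded Atf3 by 12.6-fold in replicate 1 and 9.18-fold in replicate 2. Fosb exceeded Egr1 by 1.36-fold in replicate 1 and 3.27-fold in replicate 2, so that call rested on replicate 2. Of the other 7 neighbours, the upper 5, from Jund to Fosb, each changed order between the libraries, and the lower 2 kept theirs with a ratio under 2-fold. The place of Jund beside Jun rests on the longer Jund model and was not recomputed on the shorter one. Since 2 libraries allow an exact sign test (two-sided) no p below 0.5, none is given for any order.

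The level of Fos rested on its transcript models. Fos-201, the mRNA that encodes the protein, held 24.0% of Fos TPM in replicate 1 and 25.9% in replicate 2. Fos-202, annotated as a processed transcript without a coding sequence, held 75.7% and 73.2% (74.4% ± 1.77, SD, n = 2). In estimated counts Fos-202 took 43.9% and 40.9%, since it is short. Fos-202 has 631 bases, of which 610 (96.7%) are also in Fos-201, at bases 289 to 898 of its 2108, and all 610 fall in the coding sequence. A fragment inside this stretch fits either transcript. The remaining 21 bases, at chromosome 12, 85474911 to 85474931, lie in the intron before the second exon of Fos-201, and the first exon of Fos-203 holds them too. They are shown in capitals, followed by 30 bases whose sequence Fos-201 also holds, because they are the bases of Fos-202 that Fos-201 lacks. The second exon of Fos-201 starts at 85474935, so the first lower-case bases, cag, lie in the intron too. In Fos-201 they are matched by sequence only, at the end of its first exon.
Fos-202, chr12:85474911-85474961, plus strand: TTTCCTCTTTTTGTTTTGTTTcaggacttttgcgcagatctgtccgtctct

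**Figure D2:**
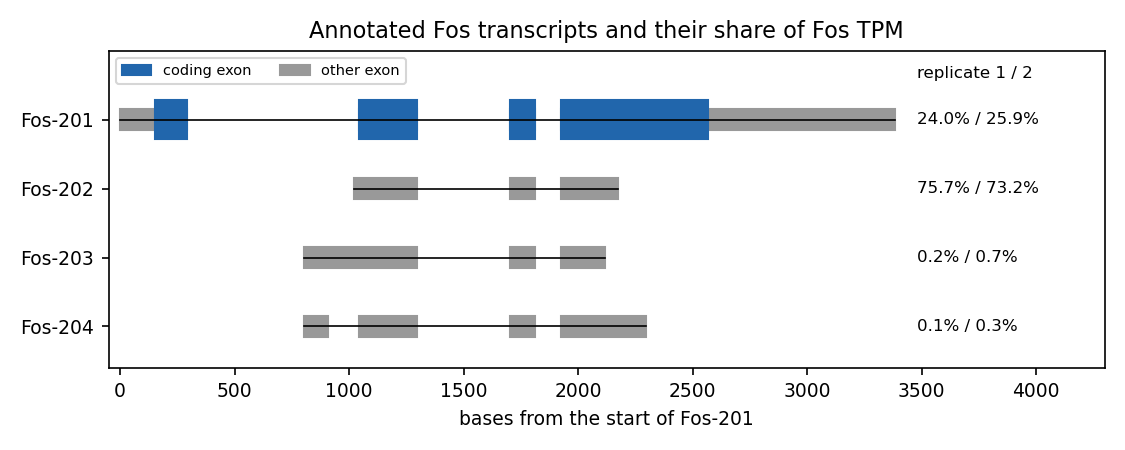
Annotated Fos transcripts by distance in bases from the start of Fos-201, with coding exons in blue, other exons in grey and introns as lines; the numbers give each transcript's share of Fos TPM in replicates 1 and 2. Fos-202 lies within the span of the coding exons of Fos-201 and held 75.7% and 73.2%, while Fos-203 and Fos-204 held under 1% each.

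How the counts were shared moved the Fos level by over 1.5 times. With every Fos count placed on the length of Fos-201, an alternative added after seeing the data, Fos came to 748 TPM in replicate 1 and 325 in replicate 2 (537 ± 299, SD, n = 2). That places it below Fosb in the order, next to Egr1. The difference between libraries kept its direction, at 2.30-fold higher in replicate 1. Whether Fos-202 was present as an RNA of its own was not tested.

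Other members had fewer transcripts in the files. Egr1 has 2 transcripts, both annotated as protein-coding, of which the longer (4484 bases) held 68.0% and 70.7% of Egr1 TPM and the shorter (3036 bases) 32.0% and 29.3%. All Atf3 counts lay on 1 of its 3 transcripts. The other 7 genes had 1 transcript each in the files, among them Fosb, for which M21 lists 7, so the spliced form known as ΔFosB cannot be told apart from full-length FosB here. No member shared fragments with another gene: all 10 had whole expected counts and a posterior SD of the count of 0 in both libraries. Genes on the opposite strand overlapped the M21 spans of 5 members, and the strand setting of the counting is not given. Ccdc85b, over 2767 bases of the Fosl1 span, had 41.4 and 56.2 TPM, more than Fosl1 itself. In counts it had fewer, 1284 and 1380, against 2639 and 2163 for Fosl1. Junos, over 689 bases of Jun, had 134 and 60 counts, against 392020 and 205642 for Jun, and Gm11175, over 919 bases of Jund, had 22 and 41. The counts of these 3 genes were also whole with a posterior SD of 0, so no fragment was divided between them and a member. Prdx2 meets the span of Junb only outside the quantified Junb transcript, and Gm24748, within Atf3, had no counts.

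The make-up of the Fos family pool differed between the libraries more than that of the Jun family. Fos held 69.3% of Fos family TPM in replicate 1 and 39.5% in replicate 2 (54.4% ± 21.1, SD, n = 2), and Fosb 28.7% and 57.4%. Fosl1 held 1.01% and 1.41% and Fosl2 1.07% and 1.76%. With all Fos counts on the length of Fos-201, Fos held 49.2% and 22.4% and Fosb 47.4% and 73.5%. On the longer Jund model, Jund held 34.8% and 42.8% of Jun family TPM, Jun 39.0% and 28.3%, and Junb 26.3% and 28.9%. Summed, the Jun family had 4984 and 4509 TPM and the Fos family 2513 and 1857 TPM. The Jun pool was the larger in each library.

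**Figure D3:**
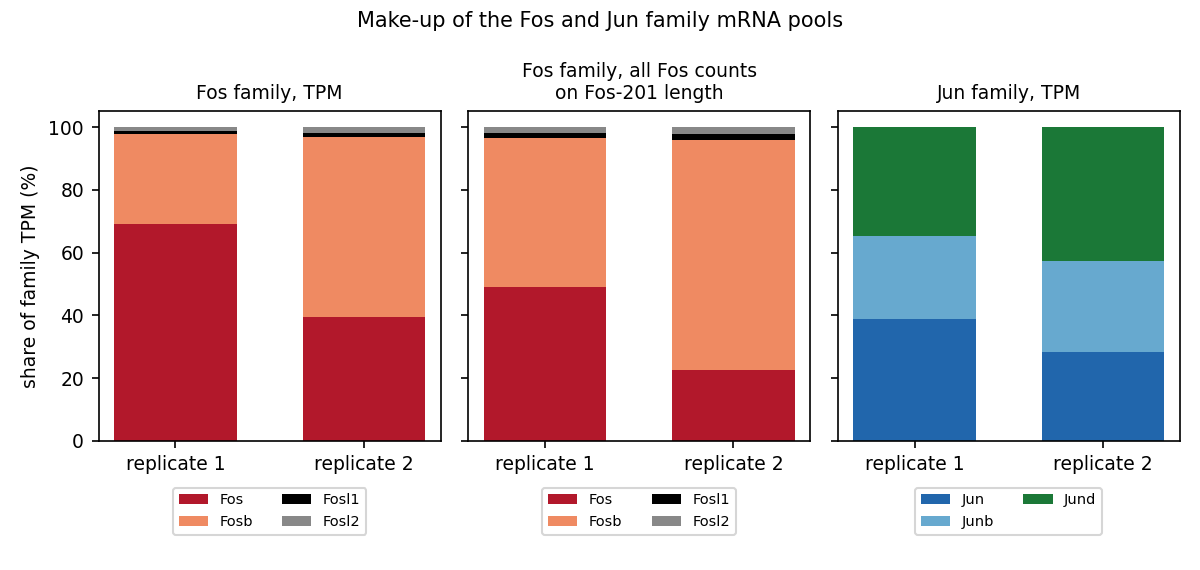
Stacked bars of each gene's share (%) of its family's TPM in replicate 1 and replicate 2: the Fos family in TPM, the Fos family with all Fos counts on the length of Fos-201, and the Jun family. In the left panel Fos held the larger share in replicate 1 (69.3%), and Fosb did in replicate 2 (57.4%).

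Ratios were set for 12 pairs, and 4 were called by the rule used for neighbours. Fos exceeded Fosl2 with a log2 ratio of 6.01 in replicate 1 and 4.48 in replicate 2. Fosl1 lay below Fosb at -4.82 and -5.35. Fos exceeded Egr1 at 1.72 and 1.17, but with all Fos counts on the length of Fos-201 the mean was 0.25 ± 0.35 and the call was lost. Egr1 lay below Ier2 at -0.99 and -1.40. The log2 ratio of Fos to Fosb was 1.27 in replicate 1 and -0.54 in replicate 2, and that of Fos to Junb 0.41 and -0.83, so neither pair had a common order. Fos lay below Jun at -0.16 and -0.80, under 2-fold. On the length of Fos-201 the mean was -1.68 for Fos to Jun and -1.41 for Fos to Junb. Both pairs were then called, but without the interval condition, since the deposited intervals do not apply to the recomputed Fos. Jund exceeded Junb at 0.40 and 0.56, and Jund to Jun changed sign (-0.17 and 0.59), as did Junb to Jun (-0.57 and 0.03). Both ratios with Jund rest on its longer model. Atf3 and Jdp2, both known as AP-1 repressors, stood close at -0.04 and -0.50, and so did Fosl2 and Fosl1 (0.08 and 0.32).

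Between the libraries Fos stood farthest apart among the 10 genes. Differences are in log2 CPM, counts per 1000000 with TMM factors, replicate 1 minus replicate 2. Fos differed by 1.30 (2.47-fold higher in replicate 1), Egr1 by 0.79 (1.73-fold) and Jun by 0.70 (1.63-fold). Ier2 (0.39) and Atf3 (0.35) lay on the same side by less, and Junb (0.11) and Fosl1 (0.06) close to 0. Fosb stood on the other side at -0.47 (1.38-fold higher in replicate 2), with Fosl2 at -0.18 and Jund at -0.06. The deposited TPM intervals of Junb and Fosl1 overlapped between the libraries, and those of the other members did not. How many of all genes tested have separate intervals was not counted, so this is not read as a trait of the members.

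Over 2-fold with separate intervals, 1 of 10 members was called higher in replicate 1 (Fos), against 2.42% of 13546 genes tested, and 0 in replicate 2, against 2.53%. Over 1.5-fold the counts were 3 (Fos, Egr1 and Jun), against 6.15%, and 0, against 7.33%. By any amount 7 of 10 were higher in replicate 1, against 50.2%. The median difference of the 10 was 0.23, against 0.002 over all genes tested. With 1 library on each side these are descriptions without a replicate check.

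**Figure D4:**
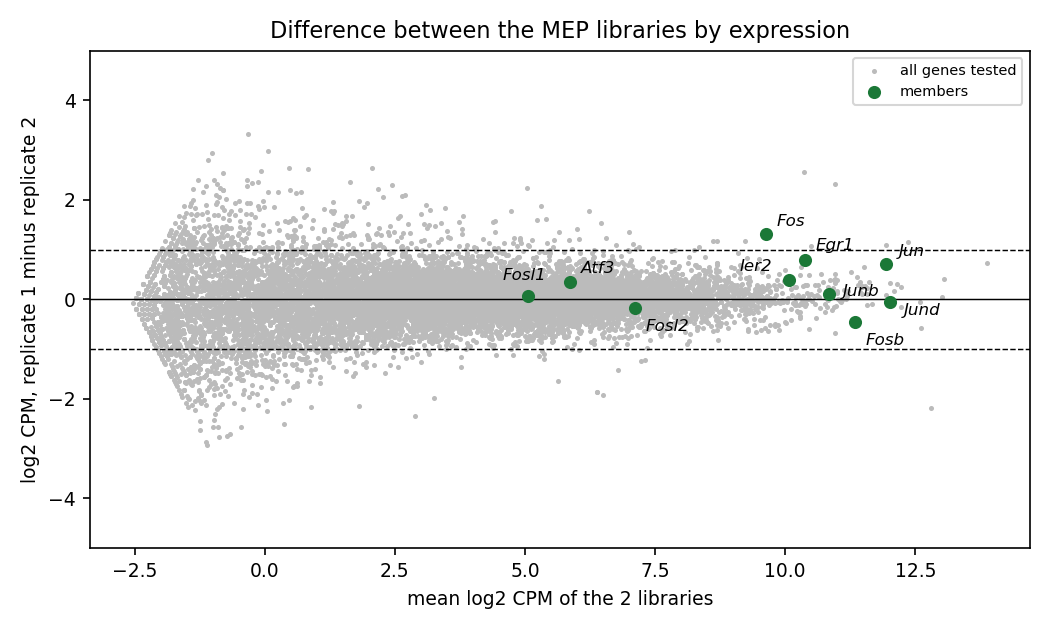
Difference in log2 CPM, replicate 1 minus replicate 2, against mean log2 CPM for all 13546 genes tested (grey) and the 10 members (green); dashed lines mark 2-fold. Fos lies above the upper line at 1.30, Egr1 and Jun below it at 0.79 and 0.70, and Fosb under 0 at -0.47.

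Other genes differed between the libraries beside these. Of 12 heat shock genes 8 were higher in replicate 1, 3 of them by over 2-fold with separate intervals, and their TPM summed to 8389 in replicate 1 and 5193 in replicate 2. Over all genes tested, 50.2% were higher in replicate 1, and 2.42% were over 2-fold higher there with separate intervals. The same shares stand beside the marker lists below. Hspa1a was at 1329 and 242 TPM and Hspa1b at 1978 and 423, near-identical copies whose split is uncertain, and the small chaperone gene Hspb1 at 22.8 and 8.63. Hspa8, the constitutive Hsp70, was at 3279 and 2599 TPM and the Hsp90 gene Hsp90ab1 at 769 and 932. Granulocyte and monocyte markers were higher in replicate 1 for 15 of 16 genes, with summed TPM of 32493 and 18825 and no marker without counts, and B cell markers for 7 of 7, with sums of 103 and 47.3. Erythroid markers were higher in replicate 1 for 2 of 11 genes (sums 1241 and 2148), megakaryocyte markers for 0 of 7 that passed the count filter (219 and 359 over all 9; Gp6 had no counts) and stem and multipotent progenitor markers for 0 of 5 (165 and 270 over all 6). Of 6 T and NK cell markers (35.8 and 19.2), only Nkg7 reached a TPM of 1 in both libraries. The part of these cells, and of the heat shock genes, in the differences of Fos, Egr1, Jun and Fosb was not tested; in bulk RNA, more cells of a type and more RNA per cell cannot be told apart.

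Further immediate early genes, 39 matched of 40 listed, were all detected in both libraries, against 46.9% of all protein-coding genes. Their median TPM was 75.8 ± 2.50 (SD, n = 2), against 0.71 over all protein-coding genes and 842 ± 63.2 over the 10 members. Zfp36, which encodes tristetraprolin, a protein that speeds decay of AU-rich mRNAs, had 1490 TPM in replicate 1 and 764 in replicate 2. Myc had 604 and 561, and Mcl1, which protects from apoptosis, 443 and 554; Arc was lowest at 2.63 and 4.04. By any amount 17 of the 39 stood above 0 in the difference and 22 below, with a median of -0.09, beside 0.23 for the members. Over all genes tested, 50.2% stood above 0. Over 2-fold with separate intervals, 4 were higher in replicate 1: Btg2, an antiproliferative gene, at 92.3 and 38.7 TPM (2.55-fold), Dusp1, the phosphatase that switches off JNK and p38, at 389 and 184 (2.26-fold), Zfp36 (2.09-fold), and Klf2 at 406 and 193 (2.25-fold), which is named after its values were seen. None was called higher in replicate 2. Over all genes tested, 2.42% were called higher in replicate 1 and 2.53% in replicate 2.

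**Figure D5:**
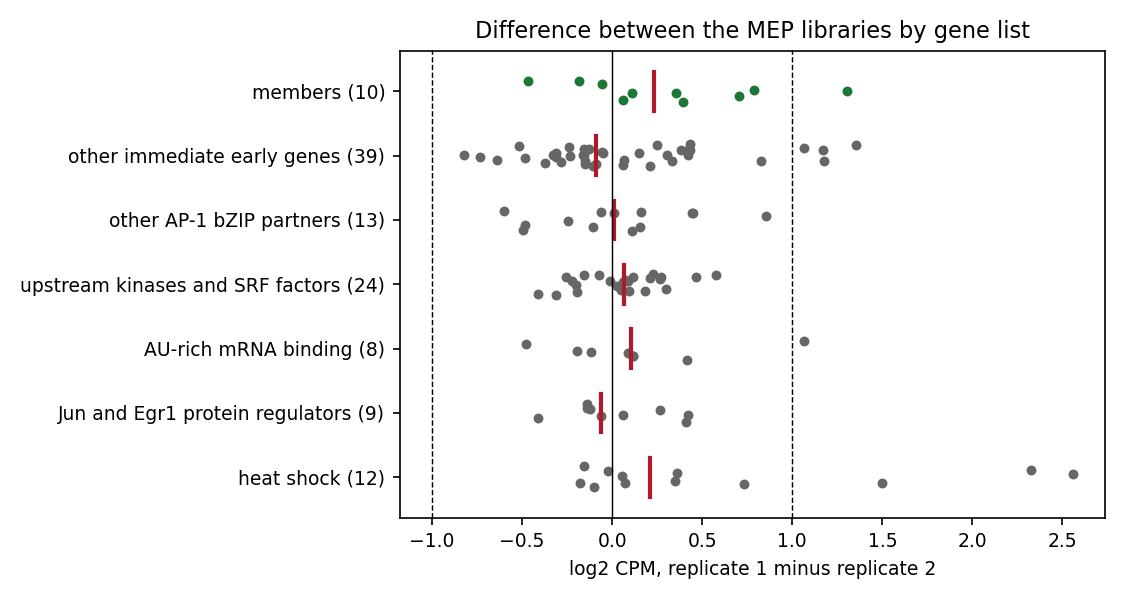
Difference in log2 CPM, replicate 1 minus replicate 2, of each gene that passed the count filter, by list (number of genes in brackets); red bars are medians, dashed lines mark 2-fold and vertical spread is for legibility. The members' median is 0.23, that of further immediate early genes -0.09 and that of heat shock genes 0.21.

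No partner of AP-1 stood over 2-fold apart with separate intervals, against 2.42% of genes tested for replicate 1 and 2.53% for replicate 2. Of 13 other zipper proteins, 12 were detected in both libraries, against 46.9% of protein-coding genes, with a median TPM of 12.7 ± 0.445 (SD, n = 2). Atf4, the integrated stress response factor, led at 652 and 627 TPM, followed by Ddit3 (CHOP) at 62.3 and 101 and Atf1 at 66.3 and 70.1. Batf3, which pairs with Jun proteins in dendritic cells, had 12.4 and 9.25, and Batf2 was lowest at 1.51 and 0.92.

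Upstream, 26 of 28 listed kinases and SRF factors were matched and 23 detected, against 46.9% of protein-coding genes, with a median TPM of 17.3 ± 0.0212 (SD, n = 2). The kinase genes Map2k2, Map2k3 and Map2k7, which act on ERK, p38 and JNK, were highest, at 362 and 363, 268 and 269, and 244 and 227 TPM. Mapk3, which encodes ERK1, was at 146 and 113, and Rps6ka1, an ERK-driven kinase gene, at 209 and 149. Mapk10, the JNK gene known from neurons, had no counts. No gene here was past 2-fold with separate intervals, against 2.42% and 2.53% of genes tested for replicates 1 and 2.

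Of 8 genes for proteins that bind AU-rich mRNA all were detected, and Zfp36, which the immediate early list also holds, was the sole one past 2-fold. Zfp36l2, a relative of Zfp36, had 1013 and 1178 TPM, Hnrnpd (AUF1) 348 and 510, and Elavl1 (HuR), which protects such mRNAs, was lowest at 9.55 and 9.6. Of 9 regulators of Jun and Egr1 protein, all detected, Trib1 (92.2 and 73.5 TPM) and the ubiquitin ligase gene Cop1 (51.0 and 37.7), which act together on protein degradation, were among the highest. Nab1, the Egr1 corepressor, had 43.5 and 54.8, and Itch was lowest at 2.87 and 3.15. None of the 9 passed the rule. For both lists the shares over all genes are 46.9% of protein-coding genes detected, and 2.42% and 2.53% of genes tested called for replicates 1 and 2.

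The protein-coding genes closest to Fos in level over the 2 libraries, by distance in log2(TPM + 1), were Zfp36 (0.23) and Gstm1 (0.39); those closest to Jun were P4hb (0.22) and Eif4g2 (0.28). Only 2 points enter each distance, so this is a likeness in level alone.

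Position and structure of the 10 genes are those of GENCODE M21 on GRCm38. Jun (ENSMUSG00000052684.4) spans chromosome 4, 95049034 to 95052222, and Fos (ENSMUSG00000021250.9) chromosome 12, 85473890 to 85477273. Fosb (ENSMUSG00000003545.2) spans chromosome 7, 19302696 to 19310051, and Egr1 (ENSMUSG00000038418.7) chromosome 18, 34859823 to 34864984. Junb (ENSMUSG00000052837.5, 84974484 to 84978718), Ier2 (ENSMUSG00000053560.4, 84661331 to 84662852) and Jund (ENSMUSG00000071076.5, 70698949 to 70700616) lie on chromosome 8. Atf3 (ENSMUSG00000026628.9) spans chromosome 1, 191170296 to 191218039, Fosl2 (ENSMUSG00000029135.9) chromosome 5, 32135801 to 32157842, and Fosl1 (ENSMUSG00000024912.5) chromosome 19, 5447547 to 5455946. The quantified transcripts of Jun, Ier2 and Jund have 1 exon in M21, as does Junb-201. The files follow the earlier release M4, in which the Jund transcript has 2878 bases against 1668 in M21, so the TPM of Jund rests on the longer model. Those of Fosb, Fosl1, Fosl2 and Junb also differ in length.

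Every member was deeply counted. Replicate 1 held 79539457 estimated counts on genes and replicate 2 held 65305321. The lowest count of a member was 2163 (Fosl1, replicate 2), and the largest relative counting error was 2.15%, far below the biological coefficient of variation of 21.8% that edgeR gave between the libraries. Of the markers of the labelled cells, 9 of 11 erythroid and 7 of 9 megakaryocyte markers were detected, against 46.9% of protein-coding genes. Alas2 was under 1 TPM and Gp6 had no counts. Detection was not particular to the labelled cells, since 16 of 16 granulocyte and monocyte and 7 of 7 B cell markers were detected too. Of the other lists, 4 of 6 stem and multipotent progenitor markers and 1 of 6 T and NK cell markers were.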

How the data were processed

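RNA-seq of 2 libraries of 1 group was used. Per the labels the assembly was mm10, and a text deposited with each sample names GENCODE M4; neither the aligner nor the quantification program nor its strand setting is given there. The authors deposited, per gene and transcript, expected counts, TPM (scaled to 1000000 per library), FPKM and, per transcript, the percent share in its gene. The deposited TPM intervals, of unstated level, lie around the posterior mean TPM, and 14 of 20 member TPM values lay outside their own interval.

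Symbols, types and coordinates came from GENCODE M21 by identifier without version, which matched 42462 of 43346 genes. The members, the 12 lists and the pairs were chosen with earlier results of these data known; 4 listed symbols had no match. Genes named outside the members are, of each list, the 3 highest, the lowest and the 2 farthest apart at a mean TPM of 5 or more, plus the genes of the pairs and the 2 nearest to Fos and Jun. Klf2, Egr2, Egr3, Egr4, the cell type markers and further immediate early genes in the closing section are outside this rule and were named after their values were seen.

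Expected counts, rounded to whole numbers, were scaled with edgeR 4.0.16 in R 4.3.3 (TMM, filterByExpr, prior count 2), with DESeq2 1.42.0 size factors as an alternative. Ratios used a pseudocount of 0.01 TPM. The steps were tested on simulated data. Promoters are from RefSeq (GRCm38.p6) and transcripts from GENCODE M21. Python 3.11.15, numpy 2.4.6 and pandas 2.3.3 did the rest. Alternatives changed unit, threshold, scaling, filter, pseudocount or left out 1 library.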

Additional observations from a re-analysis of the deposited data

How the results depend on the processing

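No paired analysis was possible because there is 1 group. Counts that moved by 1.5 times or more were the neighbours called different (1 with a 3-fold limit and 1 with all Fos counts on the length of Fos-201, against 2), the pairs called different (8 in counts without length, against 4) and the members higher in replicate 1 (3 at 1.5-fold, against 1). With all Fos counts on the length of Fos-201, 5 pairs were called: Fos to Egr1 was lost and Fos to Jun and Fos to Junb were gained. The interval condition was left out there for ratios with Fos, and in counts without length for all ratios. Those calls rest on order and fold alone, so their numbers follow a looser rule than the main ones. In counts without length, 8 members in place of 7 lay in the top 10% of protein-coding genes. In counts, the Fos-202 share of Fos was 42.4% and the Fos share of its family 24.0%. Leaving out 1 library gave 73.2% to 75.7% for Fos-202, 39.5% to 69.3% for Fos in its family, and 4 pairs called from either library. These were not the same 4 pairs. Replicate 1 alone called Fos to Fosb (1.27) and not Egr1 to Ier2 (-0.99). Replicate 2 alone called Egr1 to Ier2 (-1.40) and not Fos to Fosb (-0.54). Signs turned for 2 called ratios in counts without length, Egr1 to Ier2 (0.30) and Fos to Egr1 (-0.74), where only the length correction differs, and for Fosl1 between the libraries on log2 TPM (-0.041); the cause was not tested. The other 49 differences of members kept their sign and side of 2-fold under the 5 alternatives of scaling, filter and prior count. Spread is known from 2 libraries alone, and Jund was not recomputed on its shorter M21 model.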

Other observations

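Further immediate early genes lay on both sides of 0 in the difference of log2 CPM, replicate 1 minus replicate 2. Nfkbia, the inhibitor of NF-kB that NF-kB itself induces, had 257 TPM in replicate 1 and 487 in replicate 2 (difference -0.82), and Tnfaip3, another feedback gene of that pathway, 25.8 and 46.3 (-0.73). On the other side, Rhob differed by 0.83, Dusp2, a MAP kinase phosphatase gene, by 0.43, Trib1 by 0.42 and Ppp1r15a, a feedback gene of the stress response, by 0.15. Socs3, which restrains cytokine signalling, stood at -0.05. Among the relatives of Egr1, Egr2 (20.8 and 12.4 TPM) and Egr3 (84.3 and 73.3) had higher TPM in replicate 1, and Egr4 had 13.5 and 13.9. These genes were picked after their values were seen, and none was over 2-fold apart with separate intervals. The genes of the list that were, Btg2, Dusp1, Klf2 and Zfp36, were all higher in replicate 1.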
